A study of Homo sapiens with 6 samples.

Results

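Genes of the tumour necrosis factor (TNF) superfamily were examined in A549, a human lung adenocarcinoma cell line. The 10 genes were chosen by symbol: the ligands TNF, LTB, TNFSF10 and TNFSF15, and the receptors TNFRSF1A, TNFRSF9, TNFRSF10A, TNFRSF12A, TNFRSF21 and LTBR. All 10 were found among the 17787 symbols listed in at least 1 of the 6 libraries. Of these libraries 3 were labelled siFOXD3, for a small interfering RNA (an RNA that lowers the messenger RNA of 1 gene) against the forkhead transcription factor FOXD3, and 3 were labelled siNC, with the genotype label wild type. The labels leave the name siNC unexplained; it was taken as the control. They give neither dose nor time of transfection and do not say whether the replicates were separate cultures. The p-values therefore measure the spread between these libraries, which may be technical. The values are FPKM (sequenced fragments scaled by transcript length and by the mapped fragments of the library), so levels of different genes can be set side by side per length.

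Ligands of this superfamily are mostly made as trimers on the cell surface, and several are shed by proteases. Receptors that carry a death domain can recruit adaptors towards caspase activation, while many receptors recruit TRAF proteins and activate the transcription factor NF-kB. TNF itself is both an activator and a target of NF-kB. In epithelial tissue the family links inflammation, survival and cell death, and several members are best known from leukocytes.

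The starting level of FOXD3 was low. It was listed at 0, 0.0749 and 0 FPKM in siFOXD3 replicates 1 to 3, against 0.152, 0.291 and 0.134 FPKM in siNC replicates 1 to 3. These values correspond to an estimated 1 fragment in the siFOXD3 libraries together and 8 in the siNC libraries, a ratio of 0.119 (95% exact interval 0.00268 to 0.886, counting error only). All 8 markers of simple epithelium and of this line were expressed, with sums of 8738 to 8746 FPKM in siFOXD3 and 5900 to 6856 FPKM in siNC. Of 12 photoreceptor markers, examined because the extraction text speaks of another tissue, none reached 1 FPKM in any library, and 4 were at 0 in all.

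The levels of the 10 genes spanned a wide range. TNFRSF12A was the most abundant member in both groups, at 142 ± 8.44 FPKM in siFOXD3 and 132 ± 4.70 FPKM in siNC (mean ± SD, n = 3 each, as for all means here). LTBR, TNFRSF21 and TNFRSF1A followed between 48.3 and 59.7 FPKM in siFOXD3 and between 48.3 and 63.6 FPKM in siNC. The library values of TNFRSF21 and TNFRSF1A overlapped in siFOXD3 and did not overlap in siNC. Below these 4 receptors the order differed between the groups. In siFOXD3 it ran TNFRSF10A, TNFSF15, TNFSF10, TNFRSF9, LTB and TNF, with overlapping values for TNFSF15 and TNFSF10 and for TNFRSF9, LTB and TNF. In siNC it ran TNFSF15, TNF, TNFRSF10A, TNFRSF9, LTB and TNFSF10, with overlapping values for TNF and TNFRSF10A and for LTB and TNFSF10.

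**Figure D1:**
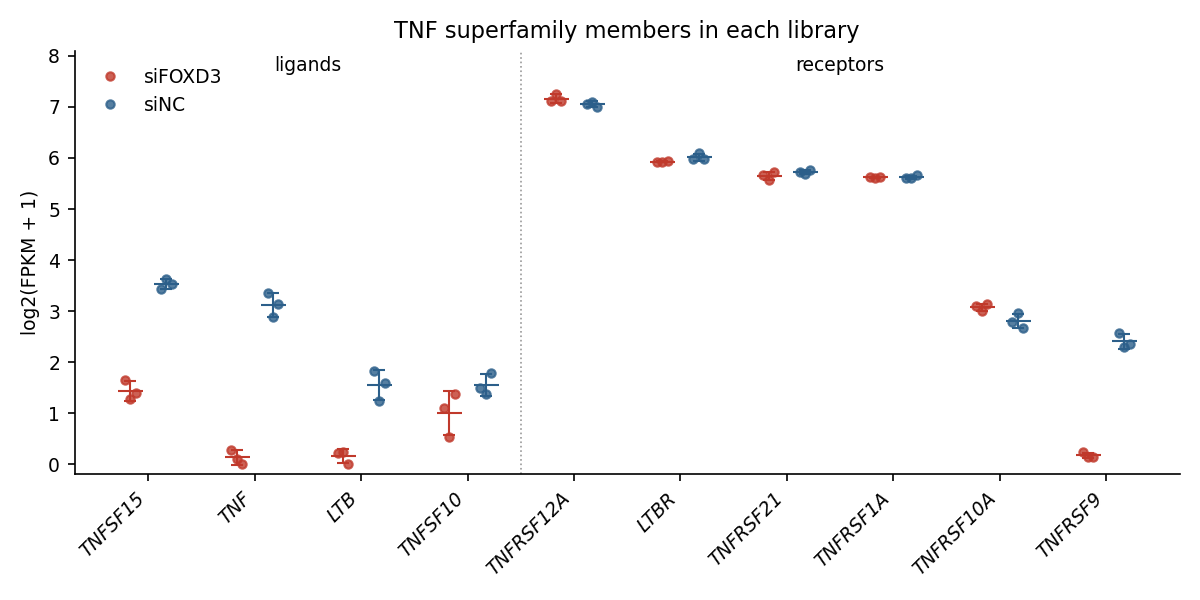
Level of each of the 10 genes as log2(FPKM + 1) in every library, ligands left and receptors right, siFOXD3 in red and siNC in blue; points are libraries, horizontal bars the mean and error bars the SD (n = 3). TNF, LTB, TNFSF15 and TNFRSF9 are lower in all 3 siFOXD3 libraries, while the 4 most abundant receptors lie at about the same height in both groups.

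All 4 ligands fell in siFOXD3, and of the 6 receptors 1 fell, 1 rose and 4 were not called. This split belongs to the members chosen. Of the other tested family genes 7 of 10 receptors and 2 of 3 ligands fell, where 38.7% of all genes fell. Summed over the 4 ligands, the level was 3.01 ± 0.814 FPKM in siFOXD3 and 22.3 ± 1.42 FPKM in siNC. Summed over the 6 receptors, it was 307 ± 4.83 FPKM in siFOXD3 and 306 ± 5.68 FPKM in siNC. Each sum follows its most abundant genes. The ligand sum in siNC is mostly TNFSF15 and TNF. The receptor sum is mostly TNFRSF12A, LTBR, TNFRSF21 and TNFRSF1A and hardly registers TNFRSF9 or TNFRSF10A. A gene was called at a Benjamini-Hochberg adjusted p under 0.05 in limma on log2(FPKM + 1), fitted on all 12555 genes with at least 1 FPKM in at least 3 libraries. Calls were common among these genes: 65.9% of the 12555 were called, 38.7% lower and 27.2% higher. Lower calls were 58.7% of all calls, but 50.1% with median-of-ratios scaling and 47.4% with quantile normalization. The 6 of 10 members called are therefore close to the share of all genes, and so are the 7 of 10 whose groups did not overlap, against 70.7% of all genes. By at least 1 on the log2 scale, 4 members fell, where 5.97% of all genes did; with a pseudocount of 5 only TNF and TNFSF15 of the members did. Of all genes 0.478% were called and at or below the value of TNFSF15, a cut that this member itself sets. All 10 members passed the filter on low values, but TNF, LTB and TNFRSF9 passed it through the siNC libraries alone, since none reached 1 FPKM in any siFOXD3 library. These 3 therefore had to differ between the groups, and the counts that include them are given as a description.

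The promoters of the 4 genes that fell most, and of TNFRSF1A as a receptor whose level hardly moved, are printed for comparison because these members moved so differently. Each is the 250 bases before the RefSeq transcription start on GRCh38.p14, in the direction of the gene, and differs in build from the hg19 named for the files. Capitals mark matches to 4 short motifs. The NF-kB consensus GGGRNNYYCC, the forkhead core TGTTTAC and the AP-1 site TGANTCA were searched on both strands. The TATA box TATAAA was searched on the gene's own strand. In these patterns R stands for A or G, Y for C or T and N for any base. The regions are chr6:31575315-31575564 (plus strand) for TNF, chr6:31582426-31582675 (minus) for LTB, chr9:114792531-114792780 (minus) for TNFSF15, chr1:7940840-7941089 (minus) for TNFRSF9 and chr12:6342077-6342326 (minus) for TNFRSF1A.
TNF: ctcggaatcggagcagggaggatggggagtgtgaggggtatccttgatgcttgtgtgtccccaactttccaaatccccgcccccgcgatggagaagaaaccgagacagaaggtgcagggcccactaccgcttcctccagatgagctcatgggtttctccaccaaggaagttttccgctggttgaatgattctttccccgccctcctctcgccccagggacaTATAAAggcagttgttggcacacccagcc
LTB: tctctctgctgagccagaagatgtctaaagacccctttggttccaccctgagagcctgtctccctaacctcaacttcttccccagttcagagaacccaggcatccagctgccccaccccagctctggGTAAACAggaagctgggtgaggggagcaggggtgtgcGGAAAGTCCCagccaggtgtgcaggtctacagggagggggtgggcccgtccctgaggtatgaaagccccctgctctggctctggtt
TNFSF15: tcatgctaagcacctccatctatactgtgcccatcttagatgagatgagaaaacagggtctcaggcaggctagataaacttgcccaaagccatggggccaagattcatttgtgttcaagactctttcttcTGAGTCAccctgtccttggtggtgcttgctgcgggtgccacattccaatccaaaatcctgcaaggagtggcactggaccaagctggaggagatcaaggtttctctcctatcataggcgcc
TNFRSF9: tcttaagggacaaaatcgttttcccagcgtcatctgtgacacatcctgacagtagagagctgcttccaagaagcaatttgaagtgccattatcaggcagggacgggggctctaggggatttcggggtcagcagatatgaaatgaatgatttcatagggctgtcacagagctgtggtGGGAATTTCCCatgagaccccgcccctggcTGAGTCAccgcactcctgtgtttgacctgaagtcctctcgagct
TNFRSF1A: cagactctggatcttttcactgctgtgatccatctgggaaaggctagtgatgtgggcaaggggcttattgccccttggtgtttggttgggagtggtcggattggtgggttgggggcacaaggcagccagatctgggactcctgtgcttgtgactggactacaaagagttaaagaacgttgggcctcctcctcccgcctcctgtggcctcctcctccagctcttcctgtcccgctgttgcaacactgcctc

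RefSeq promoters were matched for 8 members, TNFRSF10A and TNFRSF12A being the others. The NF-kB consensus was found in LTB and TNFRSF9, 2 of 8, and in 9.57% of all 27305 promoters of this length. In TNFRSF9 it matched on both strands, shifted by 1 base, so that the capitals form 1 run. The forkhead core was found in LTB alone among the 8, on the opposite strand and 123 bases before the start, and in 2.98% of all promoters. The AP-1 site was found in TNFSF15 and TNFRSF9 (6.60% of all promoters), and the TATA box in TNF, 29 bases before its start, and in TNFSF10 (7.17%). Neither TNFRSF1A, TNFRSF21 nor LTBR held any of the 4. Each motif was absent from most promoters, with a match in 2.98% to 9.57%, and the share without any of the 4 was not counted. Stretches that depart from a pattern are left unmarked, such as gggtttctcc in TNF, which differs from the NF-kB consensus at 1 base. These matches describe letters in a window, and no binding was measured.

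TNF, a central inflammatory cytokine, showed the largest fall of the family. It was at 0.221, 0.0806 and 0 FPKM in siFOXD3 replicates 1 to 3, against 9.20, 6.40 and 7.82 FPKM in siNC replicates 1 to 3. Every siNC library was above every siFOXD3 library, and siFOXD3 replicate 3 did not list the gene. The mean was 1.29% of that in siNC, and the log2 fold change of FPKM + 1 was -2.99 ± 0.14 (SE, limma, adjusted p = 7.4e-08), with 21 of the 12555 tested genes lower. TNF passed the filter through siNC alone and so had to differ, so the gap, the rank and the p-value are a description. At the estimated depth the siFOXD3 values stand for 3, 1 and 0 fragments and the siNC values for 112, 74 and 96. The ratio of fragments was 0.0135 (95% exact interval 0.00365 to 0.0349, counting error only), and the upper limit for the library without fragments, 3 of them, is worth 0.227 FPKM in siFOXD3 replicate 3. Fewer cells that make TNF and less TNF per cell cannot be told apart in RNA from whole cultures, here and for the other genes.

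The TNF messenger RNA is known for an AU-rich element, a stretch in its 3′ untranslated region that binds proteins controlling its decay. It is shown because the proteins that bind such elements are compared further on. Bases 462 to 491 of the 799 of this region in GENCODE 29 hold 5 copies of the pentamer ATTTA, in capitals, with overlapping copies merged.
TNF: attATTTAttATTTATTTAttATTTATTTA
Over its whole 3′ untranslated region TNF has 9 such pentamers, 11.3 per kilobase, where the median tested gene has 1.5. LTB and TNFRSF1A have none, and the other 7 members have between 1.60 and 4.87 per kilobase. In TNF, 3 pentamers share their last base with the next one; 55 tested genes (0.51% of the 10805 matched) have at least as many.

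LTB, which anchors the lymphotoxin trimer to the membrane, also fell. It was at 0.168, 0.184 and 0 FPKM in siFOXD3 replicates 1 to 3, against 2.55, 1.37 and 2.01 FPKM in siNC replicates 1 to 3. The groups did not overlap, and the log2 fold change was -1.40 ± 0.16 (SE, limma, adjusted p = 2.62e-05). The depth behind this is thin: an estimated 2 fragments in the siFOXD3 libraries together against 35 in the siNC libraries, a ratio of 0.0543 (95% exact interval 0.00633 to 0.211). LTB passed the filter through siNC alone and so had to differ, so the gap and the p-value are a description. Its partner in the trimer, LTA, was at 0, 0.108 and 0.0985 FPKM in siFOXD3 and 0.326, 0.420 and 0.105 FPKM in siNC, too low to be tested. LTBR, the receptor of this trimer, was far above either ligand and is described with the receptors.

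LTA, TNF and LTB are neighbours within the major histocompatibility complex on chromosome 6. Of the genes around TNF and LTB, NFKBIL1 fell, DDX39B rose and the others were too low to be tested. Whether the region changed as a unit was not tested. In RefSeq order (protein-coding genes, names and order only) the next gene beyond LTA is NFKBIL1, an ankyrin-repeat protein related to the IkB family. NFKBIL1 fell to 10.1 ± 0.175 FPKM in siFOXD3, against 23.2 ± 2.19 FPKM in siNC (log2 fold change -1.12 ± 0.07, limma, adjusted p = 7.66e-07). ATP6V1G2 beyond it was at 0.221 FPKM or less in siFOXD3 and between 0.556 and 1.21 FPKM in siNC and was not tested. The RNA helicase gene DDX39B, 4 genes from TNF, rose to 164 ± 7.20 FPKM in siFOXD3, against 128 ± 7.98 FPKM in siNC (0.36 ± 0.06, adjusted p = 0.000264). On the other side of LTB, the leukocyte genes LST1, NCR3 and AIF1 stayed under 1 FPKM in every library, and AIF1 was listed in none. The neighbours were taken by position, after the values of TNF were known.

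**Figure D2:**
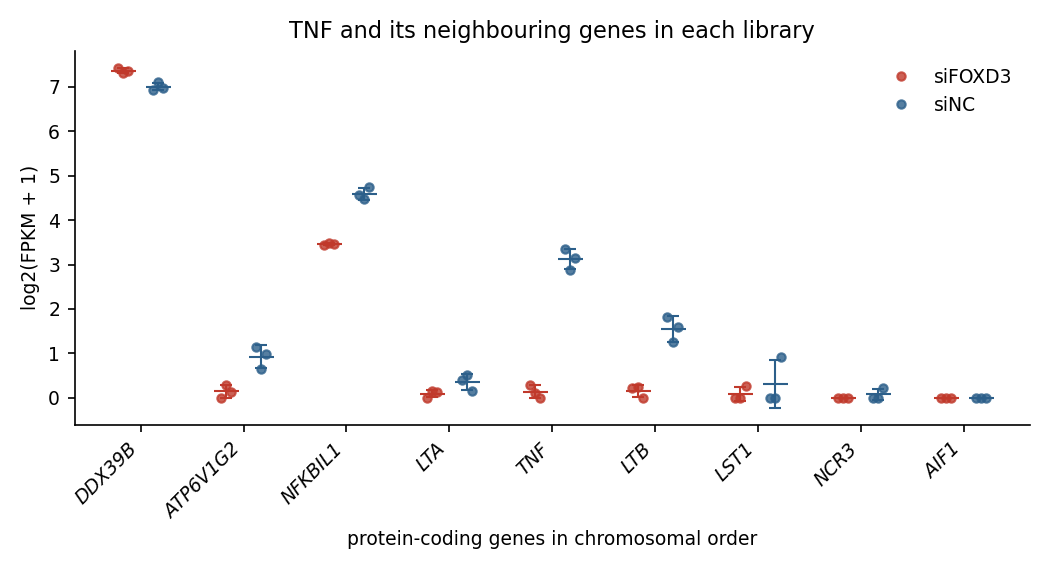
Level as log2(FPKM + 1) of TNF and the 4 protein-coding genes on either side, in chromosomal order, siFOXD3 in red and siNC in blue; points are libraries, bars the mean and SD (n = 3). NFKBIL1, TNF and LTB are lower in siFOXD3 and DDX39B is higher, at 164 against 128 FPKM.

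TNF and LTB were listed on 8 rows in every library that listed them, as genes with alternative copies of this region in hg19 can be, and the rows were summed. In siNC replicate 1 the TNF rows ranged between 0.755 and 1.31 FPKM and the LTB rows between 0.278 and 0.441 FPKM. With the highest row alone, TNF was at 0.0287, 0.0158 and 0 FPKM in siFOXD3 and at 1.31, 0.884 and 1.21 FPKM in siNC, so the direction was the same, but neither gene then passed the filter.

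TNFSF15, a ligand best known from endothelium and mucosa that signals through TNFRSF25, was the most abundant of the 4 ligands in both groups. It was at 2.15, 1.41 and 1.63 FPKM in siFOXD3 replicates 1 to 3, against 9.85, 11.4 and 10.6 FPKM in siNC replicates 1 to 3. The groups were far apart, with a log2 fold change of -2.09 ± 0.11 (SE, limma, adjusted p = 2.05e-07). Its receptor TNFRSF25 fell too, to 2.02 ± 0.393 FPKM in siFOXD3, against 5.46 ± 1.43 FPKM in siNC (log2 fold change -1.08 ± 0.17, adjusted p = 0.000239). The decoy receptor TNFRSF6B was at 0.653 FPKM or less in siFOXD3 and between 0.681 and 1.55 FPKM in siNC.

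TNFSF10, the death ligand TRAIL, was low throughout. It was at 1.16, 0.439 and 1.59 FPKM in siFOXD3 replicates 1 to 3, against 1.83, 1.58 and 2.43 FPKM in siNC replicates 1 to 3. The highest siFOXD3 value lay just above the lowest siNC value, so the groups overlapped. The log2 fold change was -0.55 ± 0.20 (SE, limma, adjusted p = 0.0344), with an interval of -0.99 to -0.10. Without siFOXD3 replicate 2 it was -0.31 (adjusted p = 0.12), without siNC replicate 1 -0.57 (0.0606) and without siNC replicate 3 -0.43 (0.125), and the call was also lost with quantile normalization (-0.22, adjusted p = 0.322).

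The receptors of TRAIL moved in different directions. TNFRSF10A, a death-domain receptor, was at 7.52, 7.02 and 7.76 FPKM in siFOXD3 replicates 1 to 3, against 5.93, 6.75 and 5.39 FPKM in siNC replicates 1 to 3. The groups did not overlap, though siFOXD3 replicate 2 and siNC replicate 2 lay close together, and the log2 fold change was 0.27 ± 0.09 (SE, limma, adjusted p = 0.0237). This call was lost without siFOXD3 replicate 1 (0.26, adjusted p = 0.0667), without siFOXD3 replicate 3 (0.24, 0.0808) and without siNC replicate 3 (0.20, 0.0884). TNFRSF10B, the second death-domain receptor of TRAIL, fell to 13.5 ± 0.521 FPKM in siFOXD3, against 24.3 ± 0.610 FPKM in siNC (-0.80 ± 0.06, adjusted p = 1.55e-06). Within a library, the ratio of TNFRSF10A to TNFRSF10B was 0.574, 0.525 and 0.550 in siFOXD3 and 0.240, 0.285 and 0.219 in siNC. Every siFOXD3 ratio exceeded every siNC ratio, with p = 0.1 by exact permutation (two-sided), which is the lowest value reachable with 3 libraries a group. The decoy receptor TNFRSF10C was at 0.398, 0.430 and 0.694 FPKM in siFOXD3 and 1.23, 1.12 and 1.23 FPKM in siNC; it passed the filter through siNC alone and so had to differ, and its call was lost with quantile normalization (-0.12, adjusted p = 0.389). The decoy TNFRSF10D was not called (4.74 ± 0.744 FPKM in siFOXD3 and 3.75 ± 0.827 FPKM in siNC, log2 fold change 0.28), but was called higher with quantile normalization (0.51, adjusted p = 0.0122) and median-of-ratios scaling (0.35, adjusted p = 0.048). The 4 receptors are related in sequence, so reads may be shared among them.

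TNFRSF9, a co-stimulatory receptor best known from activated T cells, was the receptor that fell most. It was at 0.175, 0.106 and 0.101 FPKM in siFOXD3 replicates 1 to 3, against 4.95, 3.89 and 4.14 FPKM in siNC replicates 1 to 3. Every siFOXD3 value lay far below every siNC value, and the mean was 2.94% of that in siNC (log2 fold change -2.24 ± 0.11, SE, limma, adjusted p = 1.44e-07). TNFRSF9 passed the filter through siNC alone and so had to differ, so the gap and the p-value are a description. Its ligand TNFSF9 fell less, to 5.23, 3.26 and 3.92 FPKM in siFOXD3, against 8.57, 8.82 and 7.59 FPKM in siNC (-0.88 ± 0.13, adjusted p = 0.000185).

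Some leukocyte markers were lower in siFOXD3 as well, beside these genes that leukocytes also express. The 18 leukocyte markers summed to between 100 and 104 FPKM in siFOXD3 and between 188 and 204 FPKM in siNC. Of these 7 were tested and 6 fell, where 38.7% of all genes fell. CORO1A did not fall, at 1.95 ± 0.396 FPKM in siFOXD3 and 1.90 ± 0.121 FPKM in siNC (log2 fold change 0.02, limma, adjusted p = 0.917). Among the 6 were LCP1 (25.5 ± 1.85 FPKM in siFOXD3 and 95.2 ± 6.89 FPKM in siNC) and ITGB2 (3.26 ± 0.348 FPKM in siFOXD3 and 13.1 ± 1.13 FPKM in siNC). Most of the difference in the sums is that of LCP1. CD68, the most abundant marker in siFOXD3, was at 66.0 ± 0.820 FPKM in siFOXD3 and 74.0 ± 4.74 FPKM in siNC (log2 fold change -0.16), and its call was lost with median-of-ratios scaling (limma, adjusted p = 0.298). LAPTM5, another of the 6, passed the filter through siNC alone. PTPRC, the common leukocyte antigen, was at 0.229, 0.207 and 0.146 FPKM in siFOXD3 and 0.184, 0.188 and 0.309 FPKM in siNC. CD2 and MS4A1 were at 0 in every library, and CD3E in all but 1. The part of these markers in the falls was not tested.

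TNFRSF1A, the main death-domain receptor of TNF, was nearly the same in all libraries. It was at 48.7, 47.7 and 48.3 FPKM in siFOXD3 replicates 1 to 3, against 47.5, 47.8 and 49.5 FPKM in siNC replicates 1 to 3. The log2 fold change was -0.001 ± 0.047 (SE, limma, adjusted p = 0.987), and the 95% interval of the fold ran between 0.929 and 1.07. TNFRSF1B, the other TNF receptor, which is found mainly on leukocytes, was at 0.14, 0.122 and 0.135 FPKM in siFOXD3 and at 0.308, 0.394 and 0.520 FPKM in siNC.

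LTBR, which recruits TRAF proteins and lacks a death domain, was at 59.7, 59.2 and 60.1 FPKM in siFOXD3 replicates 1 to 3, against 61.7, 67.1 and 62.0 FPKM in siNC replicates 1 to 3. All siFOXD3 values were below the siNC values, by less than the fit could call (log2 fold change -0.09 ± 0.05, limma, adjusted p = 0.142, interval of the fold 0.870 to 1.02); with quantile normalization it was called lower (-0.17, adjusted p = 0.014). TNFRSF1A and LTBR lie near each other on chromosome 12, on either side of SCNN1A, a sodium channel subunit. SCNN1A fell to 69.8 ± 3.52 FPKM in siFOXD3, against 95.7 ± 1.83 FPKM in siNC (-0.45 ± 0.05, adjusted p = 2.64e-05).

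TNFRSF21, a death-domain receptor studied mainly in neurons and lymphocytes, was at 49.8, 46.3 and 51.7 FPKM in siFOXD3 replicates 1 to 3, against 51.8, 50.5 and 53.2 FPKM in siNC replicates 1 to 3. The groups overlapped (log2 fold change -0.07 ± 0.06, limma, adjusted p = 0.271, interval of the fold 0.874 to 1.04), and with median-of-ratios scaling the sign turned (0.01).

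TNFRSF12A, the receptor of the cytokine TWEAK and a gene of growth-stimulated and injured epithelium, was at 137, 152 and 138 FPKM in siFOXD3 replicates 1 to 3, against 133, 136 and 127 FPKM in siNC replicates 1 to 3. The siFOXD3 values were all higher, by a margin that was not called (log2 fold change 0.11 ± 0.05, limma, adjusted p = 0.106, interval of the fold 0.991 to 1.17). Median-of-ratios scaling took it to 0.19 and a call (adjusted p = 0.0136), and quantile normalization turned it to -0.01. TNFSF12, which encodes TWEAK, fell to 2.27 ± 0.124 FPKM in siFOXD3, against 7.0 ± 0.778 FPKM in siNC (-1.29 ± 0.10, adjusted p = 1.75e-06). Reads of TNFSF12 can be shared with a readthrough transcript into its neighbour TNFSF13, which makes its own level uncertain.

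**Figure D3:**
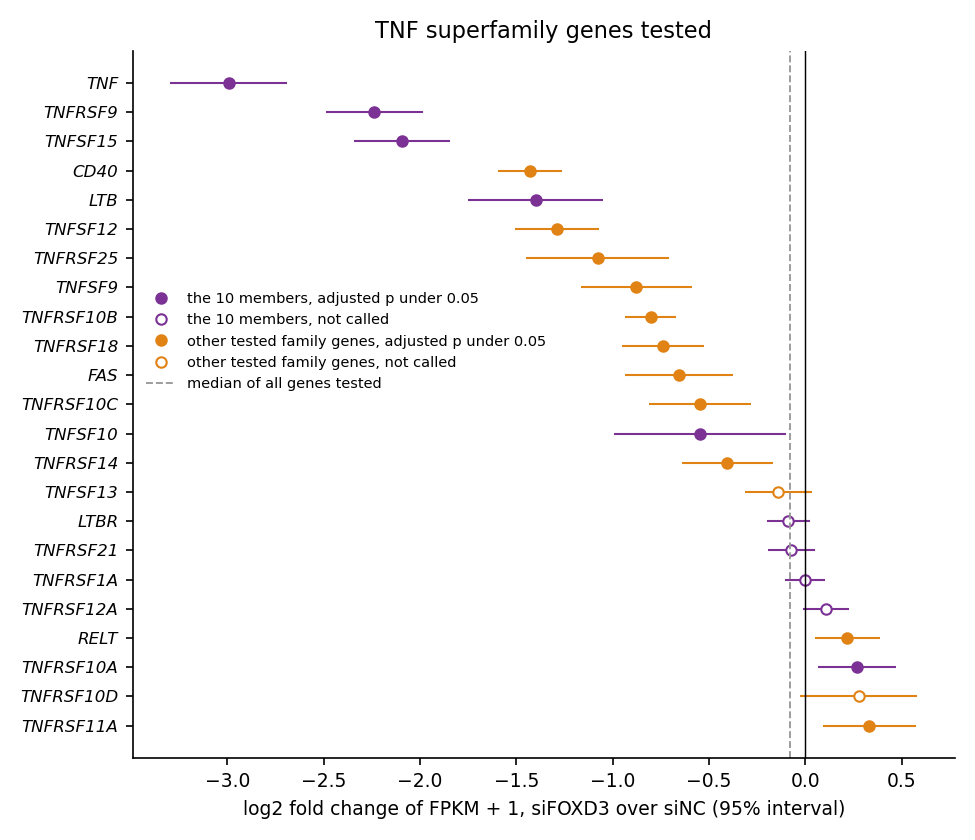
Log2 fold change of FPKM + 1, siFOXD3 over siNC, with its 95% interval for the 10 members (purple) and the 13 other tested family genes (orange); filled points passed an adjusted p of 0.05, and the dashed line is the median of all genes tested, -0.08. TNF at -2.99 lies furthest left, and 3 of the 4 most abundant receptors have intervals that include both 0 and the dashed line.

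Of the 37 other family genes looked up, 22 stayed under 1 FPKM in every library, and 13 passed the filter, of which 9 fell, 2 rose and 2 were not called, where 38.7% of all genes fell and 27.2% rose. TNFRSF10C is 1 of the 9. The median log2 fold change of the 13 was -0.66, against -0.08 for all genes tested. Of 3 tested ligands 2 fell, and of 10 tested receptors 7 fell and 2 rose. TNFSF13, the ligand not called, was at 20.7 ± 2.25 FPKM in siFOXD3 and 22.8 ± 0.773 FPKM in siNC (log2 fold change -0.14, limma, adjusted p = 0.136). With quantile normalization TNFRSF14 lost its call (-0.13, limma, adjusted p = 0.289), as did TNFRSF10C, and TNFRSF10D was called higher. CD40, a receptor of antigen-presenting and epithelial cells, fell to 8.36 ± 0.836 FPKM in siFOXD3, against 24.1 ± 0.688 FPKM in siNC (log2 fold change -1.43, limma, adjusted p = 1.9e-07). TNFRSF18, a co-stimulatory receptor, fell to 8.44 ± 1.04 FPKM in siFOXD3, against 14.8 ± 1.44 FPKM in siNC (-0.74). The death receptor FAS was lower as well, at 2.57 ± 0.410 FPKM in siFOXD3 and 4.64 ± 0.776 FPKM in siNC (adjusted p = 0.00102). Those that rose were TNFRSF11A, the receptor of the osteoclast factor RANKL (2.94 ± 0.285 FPKM in siFOXD3 and 2.13 ± 0.257 FPKM in siNC), and RELT (7.90 ± 0.325 FPKM in siFOXD3 and 6.65 ± 0.377 FPKM in siNC). FAS, TNFRSF11A, RELT, TNFSF13 and TNFRSF14 are named after their values were seen.

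Inside the cell, the adaptors and kinases next to the receptors showed no common direction. Of 15 listed, 14 were tested: 6 fell (38.7% of all genes did), 2 rose (27.2%) and 6 were not called, with a median log2 fold change of -0.08, that of all genes. With either other scaling 4 fell and 3 rose. TRADD, the adaptor of TNFRSF1A, fell to 14.9 ± 1.01 FPKM in siFOXD3, against 24.7 ± 1.29 FPKM in siNC (-0.69, limma, adjusted p = 1.14e-05), while the kinase RIPK1 rose to 8.24 ± 0.620 FPKM in siFOXD3, against 6.25 ± 0.356 FPKM in siNC (0.35, adjusted p = 0.0037). TAB3, which links ubiquitin chains to the kinase TAK1, fell by 0.85 on the log2 scale and TRAF5 fell by 0.70.

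Ubiquitin ligases and deubiquitinases of the receptor complex numbered 12, of which 9 fell and 1 rose, with a median log2 fold change of -0.41, beside 38.7% lower, 27.2% higher and a median of -0.08 over all genes. TNFAIP3, a feedback inhibitor that edits ubiquitin chains, fell to 3.37, 4.06 and 3.72 FPKM in siFOXD3, against 21.7, 17.8 and 17.9 FPKM in siNC (log2 fold change -2.09, limma, adjusted p = 7.28e-08). Its partner TNIP1 fell to 44.9 ± 2.58 FPKM in siFOXD3, against 184 ± 13.8 FPKM in siNC (-2.01). BIRC3, an inhibitor of apoptosis that ubiquitinates RIPK1, fell to 2.46 ± 0.113 FPKM in siFOXD3, against 10.6 ± 1.70 FPKM in siNC (-1.73). RBCK1, a subunit of the linear ubiquitin ligase, fell to 29.8 ± 0.542 FPKM in siFOXD3, against 74.8 ± 1.65 FPKM in siNC (-1.30).

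Of 9 tested death effectors and their inhibitors, 5 fell and 2 rose, with a median of -0.25 (all genes: 38.7% lower, 27.2% higher). The initiator caspase CASP10 fell to 3.66 ± 0.516 FPKM in siFOXD3, against 8.94 ± 1.40 FPKM in siNC (log2 fold change -1.09, limma, adjusted p = 2.28e-05), and CFLAR, which blocks caspase activation at the receptors, fell to 14.3 ± 1.41 FPKM in siFOXD3, against 26.4 ± 1.41 FPKM in siNC (-0.85). BID, which acts downstream, fell by 0.31 on the log2 scale. RIPK3, the kinase of necroptosis, was at 0 in every library.

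Of 7 genes of ligand and receptor shedding, 4 fell and 2 rose, with a median of -0.24, where 38.7% of all genes fell and 27.2% rose. With median-of-ratios scaling 4 fell and 3 rose, and with quantile normalization 3 fell and 2 rose. RHBDF2 and RHBDF1, which carry the TNF-cleaving protease ADAM17 to the surface, fell by 0.85 and 0.49 on the log2 scale. TIMP3, an inhibitor of that protease, rose to 23.8 ± 0.196 FPKM in siFOXD3, against 13.7 ± 1.38 FPKM in siNC (log2 fold change 0.76, limma, adjusted p = 1.06e-05), and the intramembrane protease SPPL2A rose by 0.31.

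NF-kB subunits, IkB and IKK genes numbered 11, with 8 lower, 2 higher and a median log2 fold change of -0.52, beside 38.7% lower and 27.2% higher over all genes. RELB, a subunit that acts downstream of LTBR and CD40, fell to 2.93 ± 0.420 FPKM in siFOXD3, against 19.2 ± 1.51 FPKM in siNC (log2 fold change -2.36, limma, adjusted p = 4.3e-08). Its partner NFKB2 (-1.63) and the inhibitors NFKBIA (-1.84) and NFKBIE (-1.19) fell as well. Of 5 tested genes named for induction by TNF, 4 fell (38.7% of all genes), led by TNFAIP3 and by TNFAIP2, at 105 ± 0.70 FPKM in siFOXD3 and 306 ± 28.7 FPKM in siNC (-1.53), with TNFAIP8 (-0.87) and TNFAIP1 (-0.49).

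The proteins that bind AU-rich elements such as the one shown for TNF moved both ways: of 8, 2 fell and 3 rose, with a median of 0.05, where 38.7% of all genes fell and 27.2% rose. ZFP36, which speeds the decay of TNF messenger RNA, fell to 15.3 ± 1.99 FPKM in siFOXD3, against 21.4 ± 1.26 FPKM in siNC (log2 fold change -0.47, limma, adjusted p = 0.000916), and its relative ZFP36L1 fell by 0.53. HNRNPD rose to 156 ± 2.26 FPKM in siFOXD3, against 100.4 ± 4.0 FPKM in siNC (0.63), and KHSRP rose by 0.62. ELAVL1, named after its values were seen, rose to 15.8 ± 0.464 FPKM in siFOXD3, against 13.3 ± 0.814 FPKM in siNC (0.24, limma, adjusted p = 0.0092). The part of these proteins in the level of TNF was not tested.

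**Figure D4:**
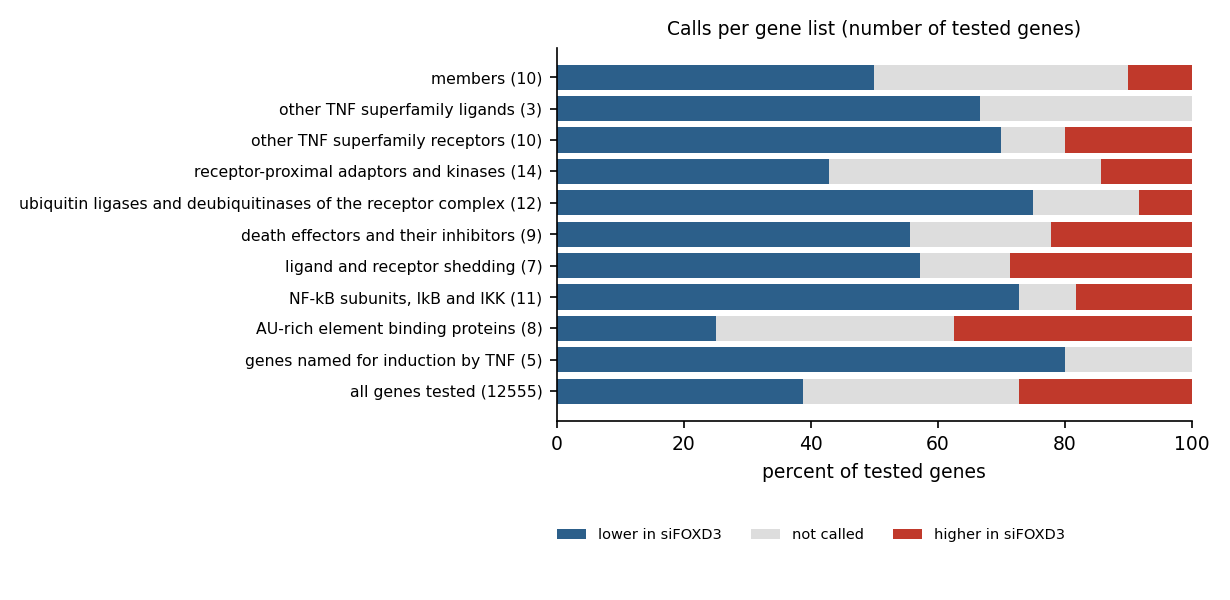
Percent of the tested genes of each pathway list that were lower (blue), not called (grey) or higher (red) in siFOXD3, with the number of tested genes in brackets and all 12555 genes in the lowest bar. Lower were 9 of 12 genes in the ubiquitin list, 8 of 11 in the NF-kB list, 4 of 5 in the TNF-induction list and 2 of 8 AU-rich element binding proteins, beside 38.7% of all genes; marker lists are not drawn.

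The genes whose pattern over the 6 libraries lay nearest to TNF, by Euclidean distance after centring log2(FPKM + 1) on the siNC mean, were HLA-B (distance 0.207), COL6A2 (0.237) and C3 (0.333). Their levels were far apart from that of TNF: HLA-B was at 6.76 FPKM in siFOXD3 and 62.2 FPKM in siNC. Nearest to TNFRSF9 were TUBB2B (0.252), ALDOC (0.254) and HLA-DQB1 (0.272), and nearest to TNFSF15 were OPTN (0.230), TUBB2B (0.265) and ZNF581 (0.312). The distances are dominated by the difference between the groups and are given as a description.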

How the data were processed

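Messenger RNA of A549 cells was sequenced in 6 libraries, 3 siFOXD3 and 3 siNC, grouped by title. Trizol extraction and an Illumina TruSeq RNA kit are named per the labels' protocols; that text names retina as the source, while the cell type label, which was followed, names A549. TopHat and Cufflinks on hg19 were used, per the submitters' processing notes; for versions, annotation and strand handling no source was at hand. The authors' deposited tables hold FPKM for each symbol, per the file headers, scaled by transcript length and library size. Rows of 1 symbol were summed and absent symbols set to 0. Values of related, overlapping or many-copy genes are uncertain.

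Tests used limma 3.58.1 in R 4.3.3 on log2(FPKM + 1) (eBayes with trend and robust, group as the only term, two-sided) for genes with at least 1 FPKM in at least 3 libraries. P-values carry Benjamini-Hochberg adjustment over 12555 genes, and fold changes on this scale understate those of low genes. FPKM sums were 596623 to 618389 per library. The files hold no counts; depth was estimated from steps between low values of 958 single-transcript genes (assumed fragment length 150 bases) at 7700000 to 8640000 fragments in siFOXD3 and 7600000 to 8010000 in siNC, and on 6 simulated libraries the estimate was within 2.96%. These libraries took over the assumed fragment length and the transcript lengths, with 10% scatter, so a common error in either would not show. Fragment intervals are exact binomial and cover counting error only. In a simulation over 12555 genes, 50 genes were changed at each of 4 sizes. The fit recovered 12% of log2 changes of 0.25, 54% of changes of 0.5 and 92% of changes of 1, with 3 false calls. In the data 65.9% of genes were called, so these rates may not carry over.

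The members and lists were chosen with earlier results of these data known. Named were the 10 members, FOXD3, from each list up to 4 called genes of largest change (or the 2 most abundant where fewer than 2 were called), and 3 genes nearest in pattern to TNF and the 2 other members of largest change; 1 gene that this rule names is not reported here; others are marked as chosen later, by position or as markers or binding partners. Promoters are RefSeq's, on GRCh38.p14; 3′ untranslated regions are those of the transcript with the longest coding sequence in GENCODE 29. Python 3.11.15 with pandas 2.3.3, numpy 2.4.6, scipy 1.17.1 and matplotlib 3.10.9 was used. Alternatives were other scalings, pseudocounts of 0.1 and 5, no filter or 5 FPKM, limma without trend and robust, a replicate block, the highest row of a symbol, and leaving out each library.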

Additional observations from a re-analysis of the deposited data

How the results depend on the processing

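TNF, LTB, TNFSF15 and TNFRSF9 kept their direction and call in every alternative in which they were tested. For TNF, LTB and TNFRSF9 this is a description and no support, since they passed the filter through siNC alone and had to differ. TNF and LTB were not tested with the highest row, nor LTB and TNFRSF9 with the filter at 5 FPKM. The log2 fold change of TNF ranged between -5.44 (pseudocount 0.1) and -1.32 (pseudocount 5), and likewise with the pseudocount that of LTB between -3.36 and -0.44, of TNFRSF9 between -4.29 and -0.86 and of TNFSF15 between -2.56 and -1.21. Quantile normalization moved the median of all genes by 0.10, to 0.03 from -0.08; relative to that median TNF was at -2.77, against -2.91 as deposited, LTBR at -0.19 against -0.01, TNFRSF12A at -0.04 against 0.18 and TNFRSF1A at -0.09 against 0.08. With median-of-ratios scaling 2 members were called higher, TNFRSF1A was at 0.086 (adjusted p = 0.138) and TNFRSF21 at 0.01 (0.833). With quantile normalization TNFRSF12A was at -0.012 (0.852) and LTBR was called lower (-0.17, 0.014). TNFSF10 also lost its call with no filter (adjusted p = 0.0708) and without trend and robust (0.054).

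With the highest row 3 members were called lower, and with a filter at 5 FPKM 2, because fewer members were tested. Of the other ligands and receptors, 11 were called, 18 with no filter and 6 at 5 FPKM, where fewer or more were tested. Leaving out 1 library, between 0 and 1 members were called higher, between 4 and 5 lower, and between 9 and 12 of the other family genes were called. TNFRSF1A ranged between -0.0124 and 0.0172 and was above 0 without siFOXD3 replicate 2 (0.0066) and without siNC replicate 3 (0.0172), called in neither. Libraries of the same replicate number deviated from their group means together at r = 0.061 to 0.163 across genes, against -0.119 to 0.026 for different numbers. Each library thus correlated best with its own number. Not every pair exceeded 0.1, so the numbers were not taken to pair the samples, though pairing remains possible. With the replicate block, 3354 genes were called higher and 4818 lower, against 3415 and 4863, and the counts for members were 1 higher and 5 lower. The call of TNFSF10 was firmer with the block (-0.55 ± 0.13, SE, limma, adjusted p = 0.00725). Depth limits TNF, LTB and TNFRSF9 in siFOXD3, where the levels are lowest.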
